A study of Mus musculus with 8 samples.

Results

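The genes described here are the major histocompatibility complex (MHC) and interferon-response genes of the mouse hippocampus, compared between wild-type and Mbd2-/- mice. They were chosen by gene symbol alone: every symbol that begins with H2-, Ifi, Ifit, Ifitm, Irf, Oas or Gbp (followed by a number where the family is numbered), together with genes of interferon signalling and class I assembly such as Stat2, Tap1, Tap2 and B2m. Of the 19201 genes listed, 82 carried such a symbol. A mean of at least 10 normalized counts over the 8 libraries was required for testing, and 50 of the 82 reached it, among 14504 genes tested in all. The prefixes also took in genes with other functions, namely the IRF2-binding proteins Irf2bp1, Irf2bp2 and Irf2bpl and the metabolic enzyme gene H2-Ke6, which lies within the MHC region.

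Total hippocampal RNA was depleted of ribosomal RNA and sequenced as 100-base paired ends in 4 wild-type and 4 Mbd2-/- libraries, each from the hippocampi of 2 pooled mice aged 10 to 12 weeks. Both genotypes had the C57BL/6 background, none was treated, and all mice were littermates of heterozygous parents. The Mbd2 allele removes the gene in the whole body, also in blood and immune cells, but leaves the first exon in place. Mbd2 is a reader of methylated CpG sites, and the sequencing was carried out to learn which hippocampal genes change in its absence. The p-values below measure the spread between pools of mice.

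MHC class I molecules stand on nearly every nucleated cell and show peptides from inside the cell to cytotoxic T cells. Each consists of a heavy chain and B2m, the invariant light chain, and is filled with peptides that Tap1 and Tap2 carry into the endoplasmic reticulum. Class II molecules show engulfed material to helper T cells and are made by professional antigen-presenting cells, in the brain mostly by border macrophages and activated microglia. Interferons act through the STAT and IRF transcription factors, which switch on the Ifi, Ifit, Ifitm, Oas and Gbp effector families and also raise class I genes. In a healthy brain most of these genes are kept at a low level.

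Reads on genes ran from 8439570 to 23790825 per wild-type library (median 15279428) and from 8087750 to 14020765 per Mbd2-/- library (median 11545382). The targeted gene was read first. Mbd2 stood at 295, 363, 371 and 354 normalized counts in the wild-type libraries and at 244, 240, 339 and 217 in the Mbd2-/- libraries. One Mbd2-/- library, replicate 3, lay within the wild-type range, and the log2 fold change was -0.43 (SE 0.12, adjusted p = 0.0174 by limma). By an exact two-sided permutation test the difference had p = 0.0571, where 4 libraries against 4 allow no p below 0.0286, and reads of the retained exon cannot be told apart from the whole transcript in these values. Replicate 4 of Mbd2-/- stood farthest from its group: its pairs had 8.39 to 14.1 times the variance of counting alone, against 1.92 to 5.53 for all other pairs within a genotype.

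Of the 50 tested genes, 9 (18%) passed the threshold of an adjusted p under 0.05 (limma on log2 normalized counts plus 1, Benjamini-Hochberg over all genes tested), where 22.0% of all tested genes did. Expression was higher in Mbd2-/- for 7 genes (14%, against 12.0% of all genes) and lower for 2 (4%, against 10.0%). The 7 higher genes were the class I heavy chains H2-K1, H2-D1 and H2-Q4, the light chain B2m, the interferon-inducible Ifi27 and the transcription factors Irf1 and Irf8. Both lower genes encode IRF2-binding proteins. The share called thus lay near that of all genes, and the median log2 fold change was 0.05, against -9.1e-05 over all genes tested. In 5 of the 50 (10%) the libraries of the genotypes did not overlap, all 5 higher in Mbd2-/-, against 23.6% of all tested genes.

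**Figure D1:**
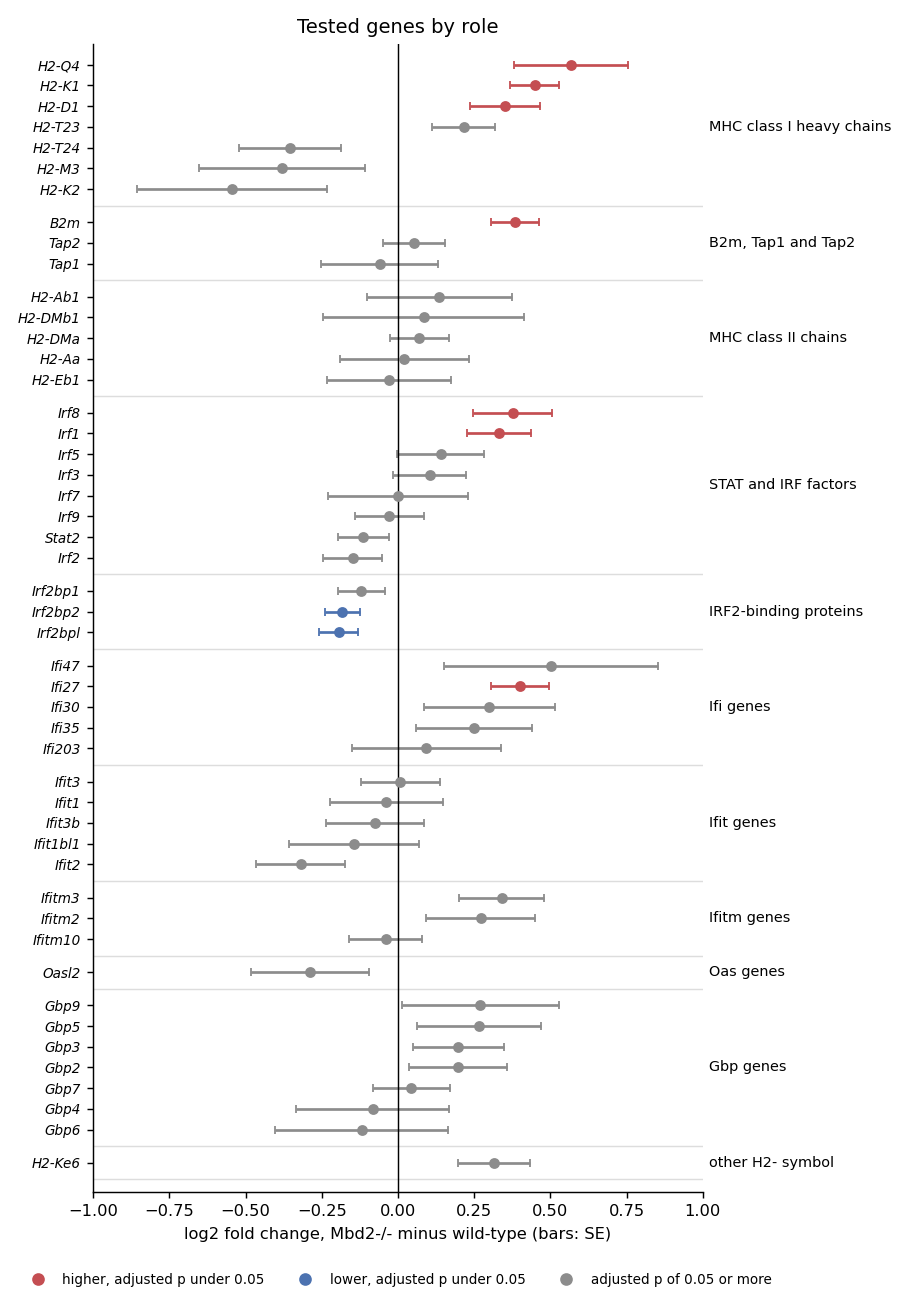
The log2 fold change (Mbd2-/- minus wild-type, horizontal axis, bars are SEs) of the tested genes described here, grouped by role. The 7 higher genes sit among the class I genes, the IRF factors and the Ifi genes, the 2 lower genes are IRF2-binding proteins, and the class II, Ifit, Ifitm, Oas and Gbp genes hold none.

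When the libraries were taken one by one, the median deviation of the 50 genes from the wild-type mean on the log2 scale was between -0.04 and 0.04 in the wild-type libraries. In Mbd2-/- it was 0.02, 0.13, 0.06 and 0.02 for replicates 1 to 4. The ranges of the genotypes overlapped.

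Promoter sequences are shown for 4 of the genes called higher, beside 2 Ifit genes that did not pass the test. Each is the 200 bases upstream of the transcript start, 5' to 3' on the gene's strand, from RefSeq on GRCm38.p6. They lie at chr17:34000348-34000547 (minus strand) for H2-K1, chr17:35262894-35263093 (plus) for H2-D1, chr2:122147487-122147686 (plus) for B2m, chr11:53769814-53770013 (plus) for Irf1, chr19:34640689-34640888 (plus) for Ifit1 and chr19:34583329-34583528 (plus) for Ifit3. Capitals mark the IRF core AANNGAAA, the letters that IRF factors read, on either strand. They also mark the STAT letters TTCNNNGAA (Irf1 only) and the exact NF-kappa B letters GGGGATTCC (H2-K1 and H2-D1 only). Other forms of the NF-kappa B site were not searched and stay in lower case, in Irf1 as in the rest.
H2-K1: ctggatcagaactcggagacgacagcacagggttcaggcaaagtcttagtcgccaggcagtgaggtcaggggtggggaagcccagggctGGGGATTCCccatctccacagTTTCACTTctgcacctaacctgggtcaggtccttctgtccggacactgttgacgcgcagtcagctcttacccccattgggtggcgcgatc
H2-D1: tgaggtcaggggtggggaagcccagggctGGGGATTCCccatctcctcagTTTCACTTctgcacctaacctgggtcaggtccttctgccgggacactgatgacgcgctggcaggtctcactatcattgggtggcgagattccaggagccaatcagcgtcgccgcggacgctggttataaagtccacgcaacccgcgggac
B2m: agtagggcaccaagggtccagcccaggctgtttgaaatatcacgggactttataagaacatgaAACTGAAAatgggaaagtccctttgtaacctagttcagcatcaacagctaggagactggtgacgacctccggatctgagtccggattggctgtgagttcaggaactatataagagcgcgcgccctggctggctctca
Irf1: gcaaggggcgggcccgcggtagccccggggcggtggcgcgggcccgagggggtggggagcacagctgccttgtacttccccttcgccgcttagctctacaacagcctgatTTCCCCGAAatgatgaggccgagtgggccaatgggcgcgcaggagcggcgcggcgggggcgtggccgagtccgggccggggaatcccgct
Ifit1: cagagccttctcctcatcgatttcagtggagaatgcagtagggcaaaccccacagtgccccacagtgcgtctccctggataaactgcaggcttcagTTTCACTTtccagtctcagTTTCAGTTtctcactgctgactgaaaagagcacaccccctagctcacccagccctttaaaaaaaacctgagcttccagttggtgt
Ifit3: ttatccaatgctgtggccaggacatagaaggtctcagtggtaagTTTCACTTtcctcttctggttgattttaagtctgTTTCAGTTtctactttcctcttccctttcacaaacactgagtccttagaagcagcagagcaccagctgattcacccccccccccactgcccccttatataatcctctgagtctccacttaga

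The H2-K1 and H2-D1 stretches share the same arrangement, with the kappa B letters 111 to 103 and the IRF core 90 to 83 bases upstream in H2-K1, and 171 to 163 and 150 to 143 bases upstream in H2-D1. B2m held the IRF core 137 to 130 bases upstream. In Irf1 the STAT letters lay 90 to 82 bases upstream. Both Ifit genes held 2 IRF cores each. RefSeq windows were at hand for 40 of the 50 tested genes, and within 250 bases upstream on both strands the IRF core was found in 23 of them (57.5%), against 6466 of 27025 genes (23.9%). The STAT letters were found in 8 of the 40 (20%), against 8.13% of all genes. The exact kappa B letters were found in H2-K1 and H2-D1 (5%), against 0.255% of all genes. That string is the form which these class I promoters hold, and no other form was searched. Its shares are therefore no evidence about kappa B sites among these genes. An IRF core and the STAT letters overlapped in none of the 40.

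Among the genes that rose the IRF core was present in 4 of the 6 with a window (B2m, H2-K1, H2-D1 and H2-Q4), and among those not called in 19 of 32 (59.4%). Irf1 and Irf8 held the STAT letters but no IRF core. Among the heavy chains and B2m all 6 genes with a window held the core, and 4 of these rose. Of the Ifit genes 4 of 5 and of the Gbp genes 4 of 4 held it, and none of these passed the test. The letters are a description of these windows and not of binding.

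Of the 7 tested class I heavy chains (15 listed), 3 were higher in Mbd2-/- and none passed as lower, where 12.0% of all tested genes were higher and 10.0% lower. H2-K1, a classical heavy chain (chr17:34132962-34137278, minus strand, mm9), had 294, 242, 260 and 261 normalized counts in wild-type and 340, 348, 405 and 349 in Mbd2-/-. Every Mbd2-/- library lay above every wild-type library. The means were 264 ± 21.8 and 360 ± 29.9 (SD, n = 4 each), and the log2 fold change was 0.45 (SE 0.08, limma adjusted p = 0.00139). H2-K1 passed the test under all 12 alternative settings that kept every library and whichever library was left out. In bulk RNA, a change in the number of cells of a type and a change in RNA per cell cannot be told apart.

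H2-D1, the other classical heavy chain of this strain (chr17:35399675-35404444, plus strand), had 82.4, 112, 85.7 and 99.9 normalized counts in wild-type and 124, 124, 123 and 111 in Mbd2-/-. Replicate 4 of Mbd2-/- fell below the highest wild-type library by a narrow margin, and the other 3 were above all wild-type values. The log2 fold change was 0.35 (SE 0.11, limma adjusted p = 0.0374). H2-Q4, a non-classical Qa heavy chain (chr17:35516562-35522235, plus strand), had 40.5, 33.9, 30.1 and 35.6 against 54.9, 47.6, 73.3 and 38.4 normalized counts. Mbd2-/- replicate 4 was again the lowest of its group and lay within the wild-type range, and the log2 fold change was 0.57 (SE 0.19, limma adjusted p = 0.0393). Both calls lay near the threshold: H2-D1 and H2-Q4 each passed in 2 of 8 fits with a library left out, with limma adjusted p up to 0.115 and 0.117. With all libraries kept, H2-D1 passed in 6 of 12 alternatives and missed with edgeR (adjusted p = 0.0532) and DESeq2 (0.0883), and H2-Q4 passed in 8 of 11.

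The remaining heavy chains did not pass. H2-T23, the gene of Qa-1, which presents leader peptides of other class I chains to natural killer cell receptors, stood at 91.4 to 108 normalized counts in wild-type and 111 to 129 in Mbd2-/-. Its groups did not overlap, although the difference was small (log2 fold change 0.22, SE 0.10, limma adjusted p = 0.143). H2-T24 had 132, 112, 120 and 120 in wild-type and 101, 81.4, 68.5 and 140 in Mbd2-/-, with 3 Mbd2-/- libraries below and replicate 4 above all wild-type libraries (log2 fold change -0.35, adjusted p = 0.141). Without that library its log2 fold change was -0.54 (limma adjusted p = 0.0017). H2-K2, with the largest fitted difference among the heavy chains not called, had a log2 fold change of -0.55 at means of 14.4 and 9.46 (SE 0.31, adjusted p = 0.222), and H2-M3 one of -0.38 (adjusted p = 0.334). Class I heavy chains thus pointed both ways, with 4 of 7 fold changes above 0.

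B2m, whose product pairs with all of these heavy chains (chr2:121973422-121978819, plus strand), had 523, 535, 463 and 510 normalized counts in wild-type and 755, 665, 577 and 662 in Mbd2-/-. The lowest Mbd2-/- library exceeded the highest wild-type library. The means were 508 ± 31.5 and 665 ± 72.6 (SD, n = 4 each), with a log2 fold change of 0.38 (SE 0.08, limma adjusted p = 0.00295), which was 0.11 (adjusted p = 0.427) and not called with the transcript length trend removed. The peptide transporter genes gave log2 fold changes of -0.06 for Tap1 (SE 0.19, adjusted p = 0.856) and 0.05 for Tap2 (SE 0.10, adjusted p = 0.751). Tap1 varied more in Mbd2-/- (33.2 to 65.8 normalized counts) than in wild-type (41.9 to 53.6).

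Per kilobase of longest transcript, B2m had the highest wild-type level of the class I genes (590), followed by H2-K1 (141), H2-T24 (55.4), H2-D1 (45.2), Tap2 (43.2) and H2-T23 (38.4 normalized counts per kilobase). H2-M3, H2-Q4, H2-K2 and Tap1 lay between 12.2 and 16.8. The summed count of the tested class I heavy chain genes and B2m was 1106 to 1223 in wild-type and 1395 to 1513 in Mbd2-/-, with means of 1163 and 1444. B2m and H2-K1 made up most of it, and the other 6 tested heavy chains together had means of 391 and 419.

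**Figure D2:**
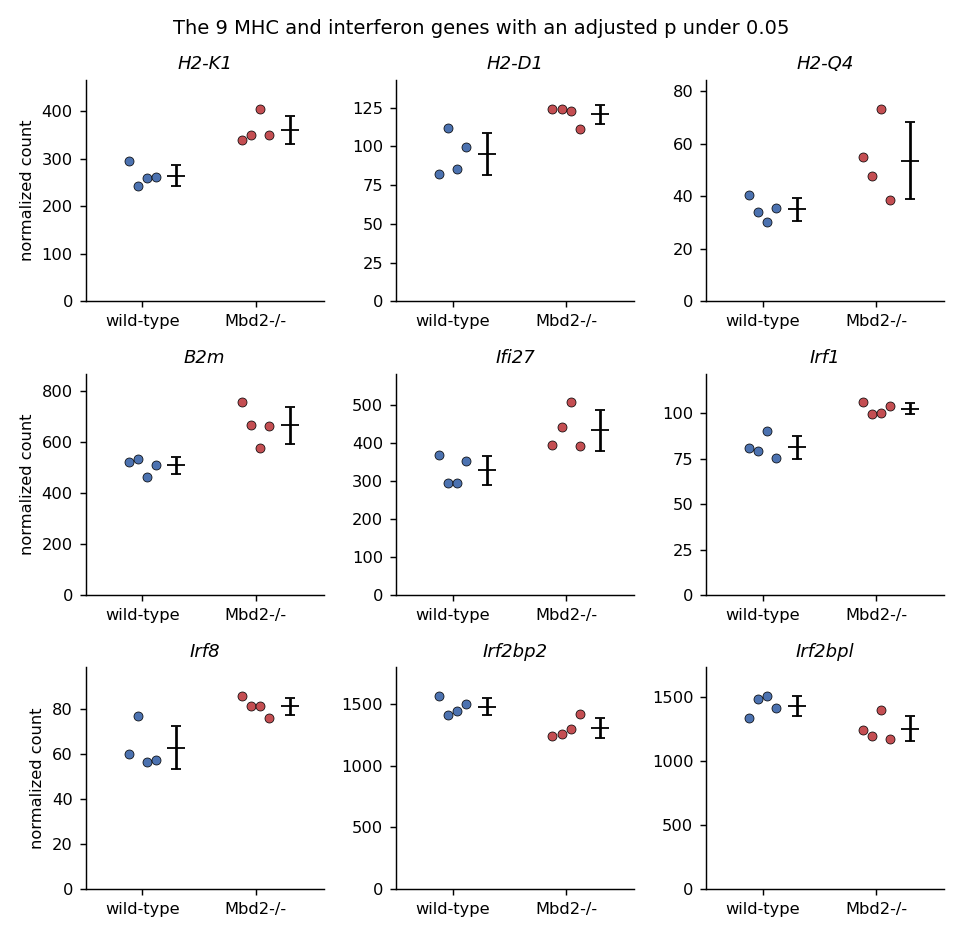
Normalized counts (vertical axes, starting at 0) of the 9 genes that passed the test, with 1 point per library and, beside the points, the mean and SD of each genotype (n = 4). The libraries of the genotypes are apart for H2-K1, B2m, Ifi27 and Irf1 and overlap for H2-D1, H2-Q4, Irf8, Irf2bp2 and Irf2bpl.

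None of the 5 class II genes tested passed, of 8 listed. H2-DMa, part of the DM complex that loads class II molecules, was the highest of them, at 142, 130, 154 and 148 normalized counts in wild-type and 162, 159, 150 and 133 in Mbd2-/-, with a log2 fold change of 0.07 (SE 0.10, limma adjusted p = 0.643). The groups overlapped over most of their range. The classical chain genes were near the lower limit of testing, with H2-Aa at 18.2 to 28.1 and 19.2 to 25.5, H2-Ab1 at 12.0 to 21.8 and 16.6 to 23.9, and H2-Eb1 at 21.0 to 25.5 and 17.3 to 26.8 in wild-type and Mbd2-/-. Their log2 fold changes were 0.02, 0.14 and -0.03, with SEs of 0.21, 0.24 and 0.20. At this depth a difference of the size seen for H2-K1 could not be reliably detected in any of them. H2-DMb1, the DM partner chain, had a log2 fold change of 0.08 (adjusted p = 0.881).

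Of the 10 tested STAT and IRF factors (11 listed), 2 were higher in Mbd2-/- (20%, against 12.0% of all tested genes), and 6 of the 10 fold changes were below 0, with a median of -0.01 on the log2 scale. Irf1, an early factor of the interferon-gamma response (chr11:53583516-53591876, plus strand), had 80.9, 79.0, 90.2 and 75.4 normalized counts in wild-type and 106, 99.7, 100 and 104 in Mbd2-/-. The groups did not overlap, and the log2 fold change was 0.33 (SE 0.11, limma adjusted p = 0.0344). Irf8, a factor that microglia and other myeloid cells need (chr8:123260258-123280594, plus strand), had 60.0, 76.7, 56.5 and 57.4 in wild-type and 85.6, 81.4, 81.3 and 75.9 in Mbd2-/-. Only wild-type replicate 2 reached the Mbd2-/- range (log2 fold change 0.38, SE 0.13, limma adjusted p = 0.0455). Leaving out a library kept the call for Irf1 in 3 of 8 fits and for Irf8 in 2 of 8. With all libraries kept, Irf8 lost its call with edgeR (adjusted p = 0.0533), DESeq2 (0.105), no filter on low values (0.0619) and the replicate block (0.0564), and Irf1 with DESeq2 (0.0744), the block (0.0565) and the length trend removed.

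Stat2 and Irf9, which act together in the type I interferon complex, gave small differences. Stat2 had 242 to 302 normalized counts in wild-type and 240 to 260 in Mbd2-/- (log2 fold change -0.11, SE 0.08, adjusted p = 0.345), and Irf9 had 91.9 to 108 and 87.4 to 114 (-0.03, SE 0.11, adjusted p = 0.882, both by limma). Irf3, which acts upstream of interferon production, had a log2 fold change of 0.10 (adjusted p = 0.567). Irf7, which is itself strongly interferon-inducible, had 17.3 to 28.5 against 16.5 to 26.9 normalized counts, with adjusted p = 0.999. Irf2, a competitor of Irf1, had a log2 fold change of -0.15 (adjusted p = 0.295).

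The IRF2-binding proteins are nuclear corepressors and not interferon-induced genes, and all 3 were tested. Irf2bp2 (chr8:129112196-129117336, minus strand) had 1563, 1411, 1447 and 1497 normalized counts in wild-type and 1240, 1256, 1301 and 1420 in Mbd2-/-. Irf2bpl (chr12:88221653-88225764, minus strand) had 1331, 1480, 1504 and 1409 against 1242, 1194, 1395 and 1173. In each gene 1 Mbd2-/- library lay within the wild-type range, replicate 4 for Irf2bp2 and replicate 3 for Irf2bpl. The log2 fold changes were -0.18 (SE 0.06, limma adjusted p = 0.0333) and -0.20 (SE 0.06, adjusted p = 0.0368), and Irf2bp1 had one of -0.12 (adjusted p = 0.276). Irf2bpl belongs to a list of reduced genes that the study chose on these libraries, so its direction is not independent evidence. Each call held in 3 of 8 fits with a library left out, and both were lost with the length trend removed (-0.13 and -0.15, limma adjusted p = 0.111 and 0.107) and in limma without trend and robust moderation. Without the IRF2-binding proteins and H2-Ke6, 7 of 46 tested genes were called (15.2%, against 22.0% of all genes), all higher (against 12.0%).

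In the effector families 1 of 21 tested genes passed (4.76%, 41 listed), where 22.0% of all tested genes did and 4 of the 10 class I genes with B2m, Tap1 and Tap2. The difference between these shares was not tested. The gene that passed was Ifi27, which encodes a small hydrophobic membrane protein and is listed in GENCODE vM1 under its synonym Ifi27l1 (chr12:104672421-104678449, plus strand). It had 369, 296, 294 and 354 normalized counts in wild-type and 396, 442, 507 and 391 in Mbd2-/-, without overlap. The means were 328 ± 38.7 and 434 ± 53.7 (SD, n = 4 each), with a log2 fold change of 0.40 (SE 0.10, limma adjusted p = 0.00752), which was 0.15 (adjusted p = 0.294) and not called with the transcript length trend removed. The other Ifi genes were low. Ifi35, a partner of Nmi, and Ifi30, a lysosomal thiol reductase of antigen processing, had log2 fold changes of 0.25 (adjusted p = 0.372) and 0.30 (adjusted p = 0.333), and Ifi47, a GTPase gene just above the threshold of testing, had one of 0.50 (SE 0.35, adjusted p = 0.324).

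The Ifit genes, whose products bind foreign RNA and are among the most strongly induced by type I interferon, did not pass in any of 5 tested members. Ifit1 had 22.3 to 34.6 normalized counts in wild-type and 25.6 to 30.8 in Mbd2-/-. Ifit3 had 64.4, 61.7, 53.8 and 57.4 against 56.2, 60.4, 55.8 and 66.3. The groups overlapped almost completely, and the log2 fold changes were -0.04 (SE 0.19, adjusted p = 0.907) and 0.01 (SE 0.13, adjusted p = 0.974, limma). Ifit2 had 103 to 121 in wild-type and 91.9, 109, 62.2 and 98.0 in Mbd2-/-, where replicate 3 was far lower than the rest (log2 fold change -0.32, SE 0.15, adjusted p = 0.127). Ifit3b, a close copy of Ifit3, had a log2 fold change of -0.08 (adjusted p = 0.770).

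Among the Ifitm genes, which encode membrane proteins that hinder virus entry, Ifitm3 had 92.9, 75.2, 72 and 84.4 normalized counts in wild-type and 125, 117, 84.5 and 89.4 in Mbd2-/-. Replicates 1 and 2 of Mbd2-/- were above all wild-type libraries and the other 2 were not, and the log2 fold change of 0.34 (SE 0.14) had a limma adjusted p of 0.0894. With the transcript length trend removed the log2 fold change of Ifitm3 was 0.02 (limma adjusted p = 0.935). Ifitm2 had a log2 fold change of 0.27 (adjusted p = 0.295) and Ifitm10 one of -0.04 (adjusted p = 0.843). Of the 9 Oas genes, the 2-5A synthetase family that activates RNase L, only the like-protein gene Oasl2 was expressed enough for testing, at 33.0 to 44.4 in wild-type and 21.1 to 35.1 in Mbd2-/- (log2 fold change -0.29, SE 0.19, adjusted p = 0.301). The guanylate-binding proteins are GTPases induced mainly by interferon gamma, and 0 of 7 tested Gbp genes passed by limma, with none at an unadjusted p under 0.05 either. The most abundant were Gbp7 (log2 fold change 0.04, adjusted p = 0.839), Gbp3 (0.20, adjusted p = 0.363) and Gbp2 (0.20, adjusted p = 0.407), and the largest difference was in Gbp9 (0.27, adjusted p = 0.482). The summed count of the 21 tested effector genes was 1141 to 1240 in wild-type and 1250 to 1411 in Mbd2-/-, without overlap, and Ifi27 was the highest of them. The other 20 genes summed to 847 to 906 and 859 to 969, which overlapped.

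H2-Ke6, the enzyme gene, had 220, 194, 227 and 238 normalized counts in wild-type and 276, 286, 339 and 208 in Mbd2-/-. Its 3 other Mbd2-/- libraries were above all wild-type values and replicate 4 was not, and the log2 fold change was 0.32 (SE 0.12, limma adjusted p = 0.0697). With the transcript length trend removed the log2 fold change of H2-Ke6 was 0.12 (limma adjusted p = 0.472). Without replicate 4 of Mbd2-/- 12 of the 50 genes passed (9 higher and 3 lower), where 35.5% of all tested genes did. These were the 9 named above with H2-Ke6 (log2 fold change 0.45), Ifitm3 (0.41) and H2-T24 (-0.54). Without any other single library between 3 and 7 passed, where 14.3% to 20.2% of all tested genes did.

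The remaining 32 of the 82 genes were too low for testing, with means of 0.16 to 9.39 normalized counts, and 19 of them had no read in at least 1 library. They held 8 of the 15 heavy chains, 3 of the 8 class II chains, Irf4, and 20 of the 41 effector genes, among them 8 of 9 Oas genes. Just inside the threshold were Ifi47, H2-DMb1 and H2-K2 with means of 10.1, 11 and 11.9, and just outside Ifitm1, H2-Ob and Ifi27l2a with 9.39, 9.29 and 9.04. When no threshold was applied, none of the 32 passed by limma, and the 4 with an unadjusted p under 0.05 were Ifitm1 (log2 fold change 0.85), Gbp10 (-1.11), Gbp8 (-1.01) and Oasl1 (-1.0), named here after their values were seen. In none of the 32 were the libraries of the genotypes apart. The level of a gene limited what the test could show: the 18 genes with a mean of at least 100 had a median SE of 0.10 and 6 calls, and the 17 with a mean under 30 had a median SE of 0.24 and no call.

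Across all genes, fold changes fell with transcript length (Spearman's rho -0.46 over 14154 genes, which are not independent). The 50 genes had a median longest transcript of 2362 bases, against 3187 for all tested genes, and B2m (860 bases), Ifi27 (977) and Ifitm3 (678) are short. When the length trend of each library was removed, the calls for B2m and Ifi27 were lost, as given above. H2-K1 (0.34, limma adjusted p = 0.00682) and Irf8 (0.39, adjusted p = 0.0456) still passed, and were the only 2 of the 50 to do so (4%, against 14.9% of all genes in that fit). The median of the 50 genes was then -0.01, and H2-D1 (0.26), H2-Q4 (0.53) and Irf1 (0.25) had adjusted p from 0.0549 to 0.133.

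**Figure D3:**
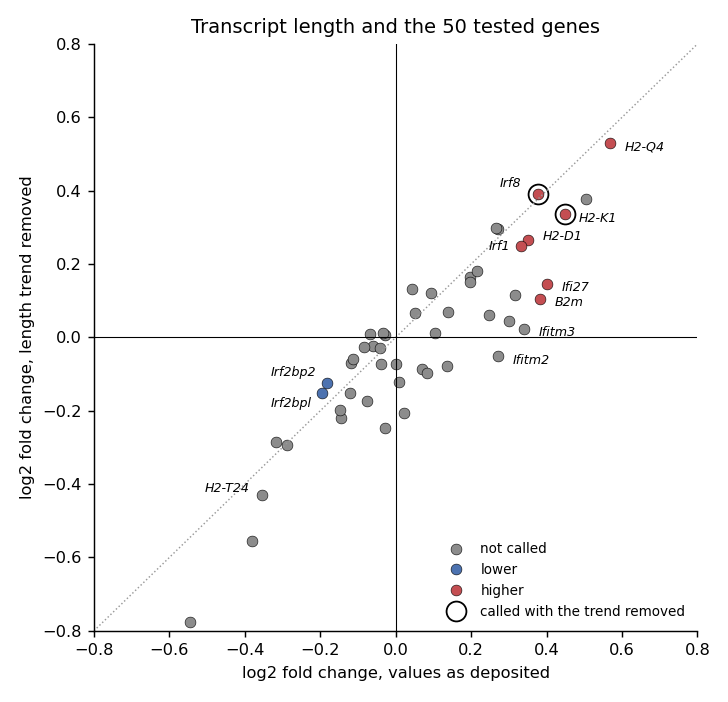
The log2 fold change of the 50 tested genes from the values as deposited (horizontal axis) against that after the transcript length trend of each library was removed (vertical axis), with the line of equality dotted. B2m moved from 0.38 to 0.11 and Ifi27 from 0.40 to 0.15, while H2-K1 and Irf8 (circled) passed the test on both scales.

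Other genes of the same pathways were read from 4 lists with 88 genes, of which 84 were listed and 75 tested, and Ifnb1, Ifng, Tgtp1 and Rnf213 were not analysed here. Of the 75, 15 passed (20%, background 22.0%), 10 higher and 5 lower, with a median log2 fold change of 0.02. The antigen processing list held most of the higher genes, with 6 of 20 higher and 1 lower, where 12.0% of all tested genes were higher and 10.0% lower. Ctss, the cathepsin that trims the class II invariant chain, had 634, 633, 620 and 618 normalized counts in wild-type and 744, 885, 856 and 807 in Mbd2-/-, a wide gap between the groups (log2 fold change 0.39, SE 0.06, limma adjusted p = 0.000598). The proteasome activator genes Psme1 and Psme2, whose products help to cut class I peptides, had log2 fold changes of 0.35 (SE 0.08, adjusted p = 0.00573) and 0.38 (SE 0.09, adjusted p = 0.00832). With the length trend removed Psme2 had 0.12 (limma adjusted p = 0.353) and lost its call, and of the 6 higher genes of this list 2 passed, Ctss and Psme1. The immunoproteasome genes Psmb8 and Psmb9 had 0.35 (SE 0.18, adjusted p = 0.162) and 0.36 (SE 0.26, adjusted p = 0.342). The other higher genes were Psmb10, Ctsl and Pdia3 and the lower one was Rfx5, named after their values were seen.

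The class I regulator and the invariant chain did not pass. Nlrc5, the transactivator of class I genes, had 14.6 ± 3.52 normalized counts in wild-type and 15.0 ± 5.48 in Mbd2-/- (SD, n = 4 each), with a log2 fold change of 0.01 (SE 0.29, adjusted p = 0.992). Cd74, the invariant chain, had 64.4, 44.4, 62.9 and 43.6 in wild-type and 38.3, 39.3, 54.2 and 41.3 in Mbd2-/- (log2 fold change -0.30, SE 0.17, limma adjusted p = 0.234), with overlapping groups.

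Receptors and signalling genes gave 1 higher and 1 lower of 11 tested, near the 12.0% and 10.0% of all genes. Ifnar2, a chain of the type I interferon receptor, had a log2 fold change of 0.27 (SE 0.09, adjusted p = 0.0445), and Jak1, a kinase shared by all interferon receptors, one of -0.18 (SE 0.05, adjusted p = 0.0128). Ifnar2 passed in 6 of 12 alternatives with all libraries and in 1 of 8 fits with a library left out, and Jak1 did not pass with the length trend removed (-0.11, limma adjusted p = 0.0913). Ifngr2, a chain of the interferon-gamma receptor, had 0.16 (adjusted p = 0.122) and the feedback inhibitor Socs3 -0.42 (SE 0.22, adjusted p = 0.187, all by limma). Among 14 nucleic acid sensors and adaptors, Tlr3, which senses double-stranded RNA, was higher (log2 fold change 0.46, SE 0.12, adjusted p = 0.0158) and Tlr7, which senses single-stranded RNA, lower (-0.51, SE 0.16, adjusted p = 0.0345). The call for Tlr3 was lost in limma without trend and robust moderation (adjusted p = 0.0683) and without replicate 3 of wild-type or replicate 1 of Mbd2-/-. The call for Tlr7 was lost with DESeq2 (adjusted p = 0.0905), with voom, with the length trend removed and in 5 of 8 fits with a library left out. The shared adaptor Myd88 had 0.37 (SE 0.15, adjusted p = 0.0830).

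Of 30 other interferon-stimulated genes tested, 2 were higher and 2 lower, against 12.0% and 10.0% of all genes. Rsad2, the antiviral enzyme viperin, had 63.0, 66.2, 72 and 59.0 normalized counts in wild-type and 29.4, 36.6, 25.5 and 33.6 in Mbd2-/-. Its groups were far apart, with means of 65.0 ± 5.52 and 31.3 ± 4.85 (SD, n = 4 each) and a log2 fold change of -1.04 (SE 0.15, limma adjusted p = 0.000346), and it passed in all 11 alternatives and 8 left-out fits run for it. Bst2, the tetherin that holds budding virus at the cell surface, had 52.5, 41.4, 54.7 and 38.8 against 71.5, 64.0, 84.5 and 66.3 (log2 fold change 0.61, SE 0.15, adjusted p = 0.00958), again without overlap. Bst2 is a short transcript of 764 bases, and its call was lost with the length trend removed (0.31, adjusted p = 0.179). The editing enzyme gene Adar had a log2 fold change of -0.20 (SE 0.05, adjusted p = 0.00693), which was -0.11 (adjusted p = 0.158) with the length trend removed, and the other higher gene was Herc6, named after its values were seen. Isg15, a ubiquitin-like gene that interferon raises strongly, had 0.10 (SE 0.23, adjusted p = 0.777).

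**Figure D4:**
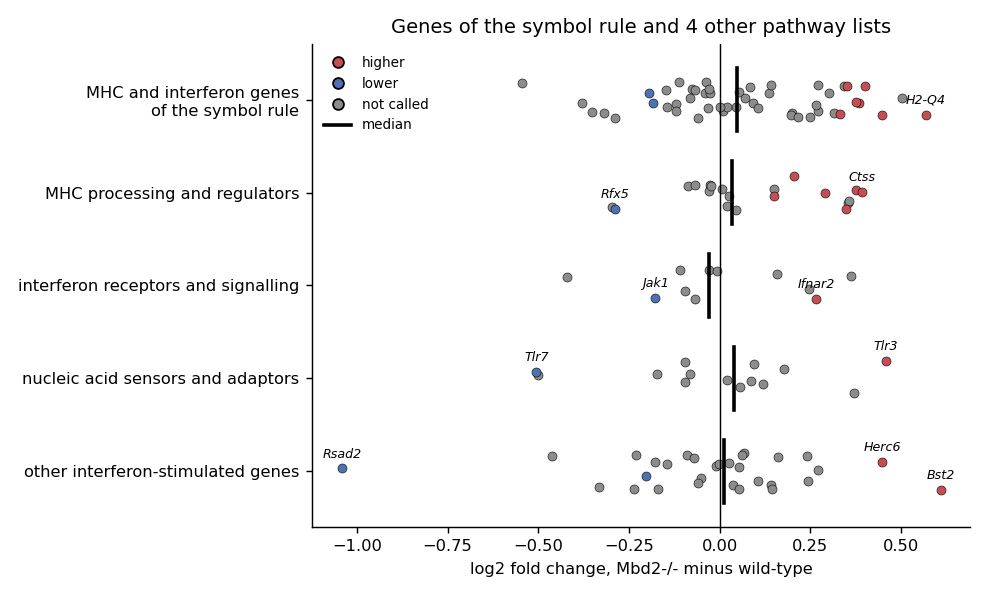
The log2 fold change (horizontal axis) of each tested gene of the symbol families and of 4 other pathway lists, with black bars for the medians and vertical scatter only to separate points. The medians lie between -0.03 and 0.05, with called genes on both sides in each list, and Rsad2 lies at -1.04.

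Markers of other cells and regions moved between the genotypes beside these genes, and their part in the results was not tested. The 17 microglial markers summed to 7247 to 7556 normalized counts in wild-type and 8088 to 9179 in Mbd2-/-, with 8 of 17 higher (4 with the length trend removed, against 12.0% of all tested genes higher as deposited), none at 0 in all libraries, and Csf1r among the most expressed. Set against this sum, Irf8 had 8.47 ± 1.14 counts per 1000 microglial marker counts in wild-type and 9.19 ± 0.24 in Mbd2-/- (SD, n = 4 each), with wild-type replicate 2 (10.2) above all Mbd2-/- libraries. Endothelial markers, of cells rich in class I, summed to 3293 to 3458 and 3585 to 3804, with 3 of 12 higher (most expressed Flt1 and Cldn5). Border macrophage markers, of cells that carry class II, summed to 159 to 171 and 124 to 134, and 0 of 4 tested passed by limma, of which 2 had an unadjusted p under 0.05. In none of these lists was a marker at 0 in all libraries. Dendritic cell markers summed to 169 to 197 and 145 to 186 (0 of 2 tested called, none under an unadjusted 0.05).

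Lymphocyte markers were near the floor, at sums of 24 to 29.2 and 20.2 to 25.5 for T and natural killer cells and 3.00 to 11.3 and 7.32 to 22.3 for B cells. Neutrophil markers were also low but higher in Mbd2-/-, at 44.6 to 63.2 and 84.6 to 123, with 3 of 3 tested genes called, 1 of them with the length trend removed (most expressed S100a9 and S100a8). The 12 choroid plexus markers (led by Ttr and Enpp2) all rose, from sums of 24051 to 25759 to 46516 to 53088, and 4 of 8 leptomeningeal fibroblast markers rose and 1 fell, with sums of 2232 to 2327 and 2970 to 3610. Astrocyte (5 of 6), oligodendrocyte (4 of 6) and ependymal (2 of 6, 0 with the length trend removed) markers were also higher. Of the thalamic markers 9 of 12 and of the red cell markers 1 of 2 were lower, and of 8 hippocampal neuron markers 2 were higher and 3 lower. Beside all these marker counts, 12.0% of all tested genes were higher and 10.0% lower. Most of the hippocampal neuron sum (93716 to 98750 in wild-type and 106842 to 110665 in Mbd2-/-) came from the general forebrain gene Camk2a. Prox1, of dentate granule cells, and Fibcd1 and Wfs1, of CA1 neurons, had means of 1641, 2127 and 1595 normalized counts in wild-type and 1431, 1747 and 1283 in Mbd2-/-, and were the 3 lower genes. Spink8, another CA1 gene, was higher (175 and 218, log2 fold change 0.31, limma adjusted p = 0.0179), but not with the length trend removed (0.0065, adjusted p = 0.972).

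**Figure D5:**
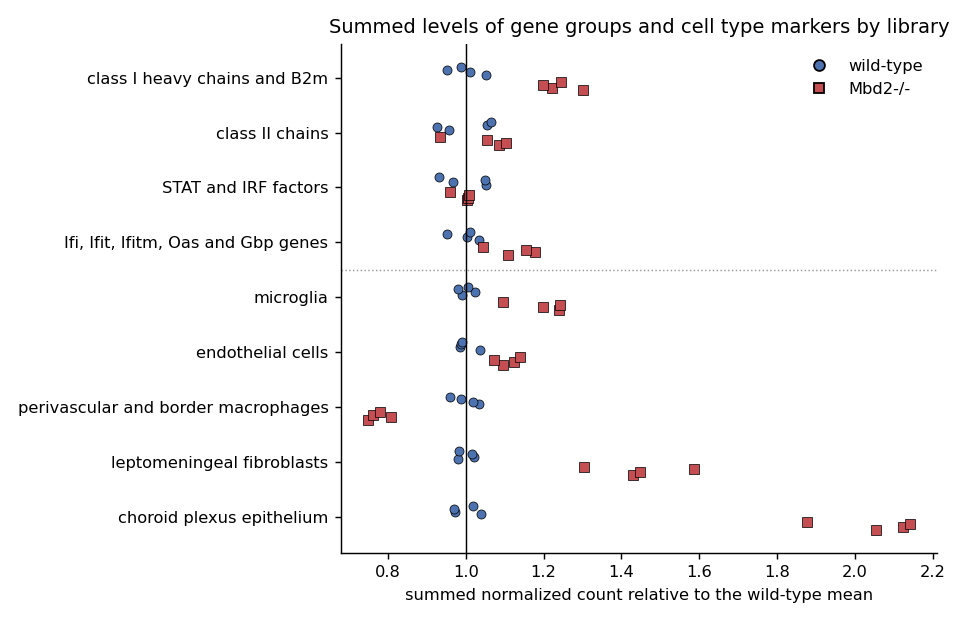
Summed normalized counts in each library, divided by the wild-type mean (horizontal axis), for 4 groups of MHC and interferon genes and, under the dotted line, 5 cell type marker lists. In Mbd2-/- class I with B2m lay between 1.2 and 1.3, the effector genes between 1.04 and 1.18 and microglial markers between 1.10 and 1.24, class II and the STAT and IRF factors overlapped with wild-type, and choroid plexus markers reached 1.88 to 2.14.

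Several of these genes cannot be fully separated by short reads. Class I heavy chains, the Ifit genes and the Gbp genes are near copies of their neighbors, so that reads may have been shared or lost between them, in particular for H2-Q4, H2-T24, H2-K2 and Ifit3b. In GENCODE vM1, exons on the opposite strand overlap H2-Q4 (496 bases with Gm11131), Irf2bp2 (1039 bases with Gm16983), Irf1 (135 bases with Gm17334), Tap1 (212 bases with Psmb9), Tap2 (533 bases with Gm15821 and 165 with Gm20496) and Ifi35 (290 bases with Gm11626), H2-Ke6 shares 1309 bases with Gm20427, Ifitm10 163 with Ctsd, Irf9 123 with Rnf31 and Ifi47 111 with Olfr56 on their own strand, and no strand setting was stated for the counting.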

How the data were processed

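Total hippocampal RNA from 4 wild-type and 4 Mbd2-/- pools of 2 mice was depleted of ribosomal RNA and sequenced on an Illumina instrument. Before deposit, the authors discarded duplicate reads, mapped what was left with STAR (mm9) and ran DESeq2 between the genotypes. Versions and the counting tool are not given in the sources used here. What they deposited per library is a normalized signal, the read count of a gene over the size factor from DESeq2, next to its mean over the 8 libraries. The authors also deposited the log2 fold change with its standard error, the Wald score and the p-value of their own comparison, which were not used. Columns lettered C and K were read as wild-type (control) and Mbd2-/-, matched on the number in the sample titles.

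Reads were recovered from the values of each library, of which 100% were whole to within 0.01 of a read, and the depth they give covers counting error alone (no molecular identifiers were used). The test was limma 3.58.1 (R 4.3.3, mean-variance trend, robust) on log2 of the normalized count plus 1, for genes averaging 10 or more, and a call needed an adjusted p (Benjamini-Hochberg) below 0.05. The log2 scale with a pseudocount understates changes of low genes. The fit was checked on simulated counts with few changed genes and the same dispersion for all genes and libraries. That check does not cover many changed genes, a length trend or an outlying library, as in these data. Alternatives were edgeR 4.0.16, DESeq2 1.42.0 and limma-voom on the recovered reads, TMM and upper-quartile scaling, other pseudocounts and filters, limma without trend and robust moderation, removal of the length trend, a replicate block and leaving out each library. Coordinates are from GENCODE vM1 on mm9, to which 18063 of 19201 symbols (94.1%) were matched, and promoters are from RefSeq on GRCm38.p6.

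Genes named with values are Mbd2, every called member, the 3 most expressed members and the largest difference of each role, a set of core members, the 3 members on each side of the threshold, and for the 4 pathway lists the 3 smallest p, the largest difference and 6 core genes. Marker lists are given by their sums, calls and most expressed genes. Some genes that these rules take in count in the totals but are not reported here by name. Members and lists were chosen with earlier results of these data known. The replicate numbers do not pair the samples: deviations of same-numbered libraries correlated at -0.10, -0.06, 0.07 and 0.04. No pair of libraries agreed within sampling noise.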

Additional observations from a re-analysis of the deposited data

Results flagged for a closer look

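Single libraries that stood apart from the other 3 of their genotype were sought among the 50 tested genes of the family, 18 pathway genes and Mbd2 by Dixon's ratio, the gap to the nearest library over the whole range, against its 95% critical value for 4 libraries. Of 138 groups tested 7 passed that value, and chance alone flags about 1 in 20. Among genes that passed the genotype test, H2-K1 in Mbd2-/- replicate 3 was the highest of its group (ratio 0.859, 405 normalized counts against 340 to 349). H2-D1 in Mbd2-/- replicate 4 was the lowest (ratio 0.873, 111 against 123 to 124), and Irf8 in wild-type replicate 2 was the highest (ratio 0.830, 76.7 against 56.5 to 60.0). Among genes that did not pass, the low values were Oasl2 in Mbd2-/- replicate 4 (ratio 0.866, 21.1 against 33.2 to 35.1), and Irf7 (ratio 0.866, 16.5 against 25.5 to 26.9) and Isg15 (ratio 0.859, 17.4 against 23.9 to 25.0) in Mbd2-/- replicate 2. Gbp5 in wild-type replicate 2 was high (ratio 0.837, 27.8 against 20.7 to 21.9).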

How the results depend on the processing

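H2-K1 passed in all 12 alternatives that kept every library and B2m and Ifi27 in 11 of 12, and all 3 passed in 8 of 8 fits with a library left out. With no filter on low values all 82 genes were tested, and 6 were called (4 higher and 2 lower), where 15.1% of 19201 genes were. The median log2 fold change of the 82 genes was 0.0038. With DESeq2 6 genes of the family were called (4 higher and 2 lower), where 21.3% of all genes were. With the length trend removed, 2103 of all genes, 2 of the family (2 higher, 0 lower) and 6 pathway genes were called, and the family median reversed to -0.0083. Without trend and robust moderation 5 of the 50 were called, 0 of them lower, where 15.0% of all genes were called. In that fit Mbd2 (-0.43) had a limma adjusted p of 0.0731. Directions reversed for H2-Aa (-0.062 by edgeR, -0.038 by DESeq2, -0.039 by voom), Irf7 (0.026 by edgeR, 0.015 by DESeq2, 0.035 by voom, 0.0012 with TMM) and Ifit1 (0.014 by voom), and with the length trend removed for H2-Aa (-0.21), H2-Ab1 (-0.078), H2-DMa (-0.087), H2-DMb1 (-0.097), Ifit3 (-0.12), Ifitm2 (-0.052), Irf9 (0.0063) and Isg15 (-0.20). None of these genes was called in either fit, and beyond what the settings themselves change the cause was not tested.

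Leaving out 1 library gave 3 to 12 calls in the family (3 to 9 higher, 0 to 3 lower), a median of 0.027 to 0.082, 5 to 13 of 50 genes without overlap (26.3% to 39.2% of all genes), 9 to 19 pathway genes, 2068 to 5155 of all genes and -0.56 to -0.35 for Mbd2. Mbd2 lost its call without replicate 3 of wild-type, Mbd2-/- replicate 1 or Mbd2-/- replicate 2, with limma adjusted p up to 0.0625. The highest counts of calls came without Mbd2-/- replicate 4 and the lowest family counts without Mbd2-/- replicate 1, Mbd2-/- replicate 2 or replicate 4 of wild-type, and the pathway minimum without wild-type replicate 3. Uncalled genes changed sign within these ranges: H2-Aa -0.056 to 0.15, H2-Ab1 -0.034 to 0.24, H2-DMb1 -0.076 to 0.31, H2-Eb1 -0.12 to 0.083, Irf7 -0.14 to 0.16, Ifit1 -0.16 to 0.039, Ifit3 -0.043 to 0.048, Irf9 -0.11 to 0.019, Tap1 -0.23 to 0.088, Tap2 -0.0055 to 0.12, Gbp7 -0.013 to 0.12, Ifitm10 -0.14 to 0.044, Isg15 -0.029 to 0.25 and Nlrc5 -0.19 to 0.15. With the replicate number as a block, which pairs nothing here, 8 of the family (6 higher, 2 lower, with Irf1 and Irf8 lost and H2-Ke6 gained), 14 pathway genes and 3192 of all genes were called.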

Other observations

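Cmpk2, the nucleotide kinase gene usually induced together with Rsad2, had 331 ± 18.1 normalized counts in wild-type and 320 ± 19.1 in Mbd2-/- (SD, n = 4 each), with a log2 fold change of -0.05 (limma adjusted p = 0.644), while Rsad2 fell. Whether the genes differ in their response was not tested. The interferon-stimulated genes Parp14, Isg20 and Samhd1 had every Mbd2-/- library below every wild-type library, but did not pass the test. In their list 7 of 30 tested genes did not overlap, near the share of all tested genes (23.6%). Of these 5 were lower, where 11.5% of all tested genes were lower in this way, and 2 higher, where 1756 of 14504 were. The log2 fold changes of Parp14, Isg20 and Samhd1 were -0.24, -0.46 and -0.15, with limma adjusted p of 0.183, 0.156 and 0.207. These genes were named after their values were seen.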
